A study of Mus musculus with 12 samples.

Results

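The developmental pluripotency-associated genes Dppa2, Dppa3, Dppa4 and Dppa5a and the oncogene Tcl1 were followed in fetal mouse testes with and without the transcription factor Dmrt1. All probe sets that the platform annotation assigned to one of these genes and to no other were taken, which gave 6 of the 45101 probe sets on the array and 5 of 18193 named genes. Dppa2 had 2 probe sets, and each of the other genes had 1. The 12 arrays formed 4 groups of 3: Dmrt1 knockout and wild type testes of the 129Sv strain, and Dmrt1 knockout and wild type testes of the B6 strain. All were labelled E15.5, and total RNA of whole testes was hybridised to Affymetrix arrays. The growth protocol gives P28 instead, and the stage on the sample labels was followed. The series text speaks of conditional removal of Dmrt1, whereas the genotype label of the samples is Dmrt1 knockout. The sources used here name neither the Cre driver, nor the cells in which it acts, nor the part of the gene removed. The labels do not say whether each array is a separate animal, so the p-values below measure the spread between these arrays, which may be technical.

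These genes are known as markers of pluripotent cells and of the early germ line. Primordial germ cells share much of the expression programme of embryonic stem cells, and male germ cells in the fetal testis shut most of it down as they enter mitotic arrest. Dppa2 and Dppa4 encode SAP domain proteins that bind chromatin as a pair and, in mouse embryonic stem cells, activate genes of the 2-cell embryo. Dppa3 (also called Stella or PGC7) encodes a small protein that protects DNA methylation in the zygote and is known to restrain the methylation factor UHRF1. Dppa5a (also called Esg1) encodes a KH domain protein that binds RNA, and Tcl1 encodes a co-activator of the AKT kinases.

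In GRCm38.p6 coordinates of RefSeq, the genes lay at 4 loci. Dppa4 (chr16:48283735-48294292) and Dppa2 (chr16:48310274-48319513) were neighbours 16 kb apart. Dppa3 lay at chr6:122626424-122630271, Dppa5a at chr9:78367052-78368199 and Tcl1 at chr12:105216753-105222737. RefSeq also lists the pseudogenes Dppa5c and Dppa5b on chromosome 9, 94.0 and 120.5 kb from Dppa5a. Whether the Dppa5a probe set also detects transcripts of such near-identical copies was not tested.

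The promoter of Tcl1 is shown because Tcl1 was the 1 member of 5 found in the RefSeq promoter table. It also had the highest fold change between knockout and wild type of the 5 genes in both strains. The window runs from 250 bases before to 50 bases after the start of the gene, chr12:105222688-105222987 on the minus strand of GRCm38.p6, printed in the direction of transcription with each CpG dinucleotide in capitals.
Tcl1: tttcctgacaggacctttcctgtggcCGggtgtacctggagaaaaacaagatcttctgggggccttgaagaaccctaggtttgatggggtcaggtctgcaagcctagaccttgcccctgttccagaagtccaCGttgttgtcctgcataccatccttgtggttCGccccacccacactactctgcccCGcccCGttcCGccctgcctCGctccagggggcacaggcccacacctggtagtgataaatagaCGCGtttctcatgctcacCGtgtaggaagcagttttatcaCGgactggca
The 300 bases held 11 CpG dinucleotides, against a median of 7 over the 32851 promoter windows of the same length, and 41.4% of those windows held as many. Their GC content was 56.7%, against a median of 52.7%. Searched on both strands, the letters ACANTGT, the core of the known DMRT1 site, had no match in the window and occurred in 7.54% of all windows. The octamer ATGCAAAT, bound by POU factors, also had no match and occurred in 1.74% of windows. The GC box GGGCGG matched at bases 187 to 192 and 197 to 202 of the window, both on the strand opposite to the one printed, and occurred in 35.7% of windows.

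Values are GCRMA intensities per probe set on a linear scale. Folds and log2 differences come from a limma fit of the 4 group means to log2 values of all 12 arrays, and adjusted p-values are Benjamini-Hochberg values over the 12726 genes tested, with 0.05 as the threshold for a change. Errors are SD for intensities and SE for log2 differences, with n = 3 arrays a group. The array medians lay between 17.3 and 19.0. The 3′/5′ signal ratio of the Actb control, a measure of RNA integrity, was 6.30 on B6 knockout array 3, 5.24 on 129Sv knockout array 1 and 3.91 on 129Sv wild type array 2, and between 1.99 and 2.79 on the other 9 arrays. Dmrt1 itself had 145 to 181 in 129Sv knockout testes against 924 to 1183 in 129Sv wild type, and 64.0 to 86.4 in B6 knockout testes against 795 to 1092 in B6 wild type, so each library was in keeping with its label. Whether its probe set lies in the removed part was not tested. In B6, knockout and wild type arrays 1 share the first number of their sample titles, and so do arrays 2, and the labels do not say what this number marks. No call for the 5 genes changed with it as a random block. The last number of the titles was 1 to 3 on B6 knockout, 4 to 6 on B6 wild type and 7 to 12 on 129Sv arrays. It separates the strains, and the genotypes within B6, so whatever it marks cannot be told apart from these. In whole testis RNA, fewer cells of a type and less RNA per cell cannot be told apart.

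In 129Sv, Dppa5a, Tcl1 and Dppa3 were higher in Dmrt1 knockout testes and the paired factors Dppa2 and Dppa4 did not pass the test. In B6, Dppa5a and Tcl1 were higher in knockout testes and Dppa4 was lower. The differences of Dppa5a and Tcl1 were between 2.25-fold and 3.58-fold. In 129Sv, 3 of 5 genes passed, all of them higher, where 8.31% of all tested genes passed in either direction, 4.07% of them higher and 4.24% lower. In B6, 3 of 5 passed, 2 higher and 1 lower, where 7.90% of tested genes passed, 2.45% higher and 5.45% lower. The arrays of knockout and wild type did not overlap for 3 of 5 genes in 129Sv, all higher, where 14.2% of all tested genes did so in that direction. In B6 they did not overlap for 2 genes that were higher and 1 that was lower, where the shares of all tested genes were 14.3% and 13.4%.

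**Figure D1:**
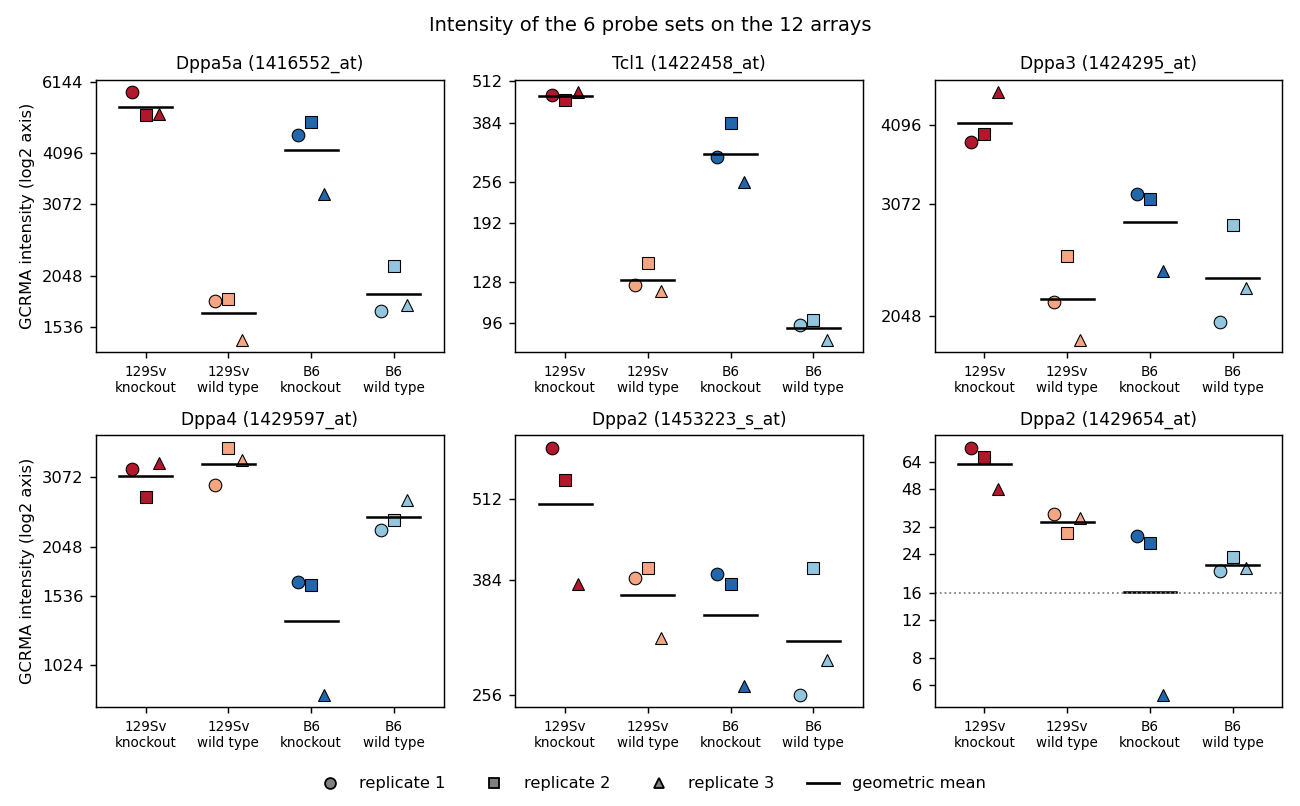
Intensity of the 6 probe sets on the 12 arrays, one panel per probe set, on a log2 axis. Each point is an array, its shape gives the replicate number and the black line is the geometric mean of the group of 3. The dotted line, where drawn, marks the intensity of 16 used as the filter. For Dppa5a and Tcl1 the knockout arrays of each strain lie above the wild type arrays, and for Dppa4 the B6 knockout arrays lie below all others.

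Dppa5a was higher in knockout testes of both strains. Its intensity was 5787, 5080.1 and 5111 on the 129Sv knockout arrays, against 1774, 1796 and 1429.5 on the 129Sv wild type arrays. In B6 it was 4529.6, 4898 and 3251 on the knockout arrays, against 1684, 2171 and 1741 on the wild type arrays. All 6 knockout arrays lay above all 6 wild type arrays, and the lowest of the knockout arrays was B6 knockout array 3. The fold was 3.21 in 129Sv (log2 difference 1.68 ± 0.15, limma adjusted p = 5.11e-06) and 2.25 in B6 (1.17 ± 0.15, adjusted p = 0.000199). Ordered by mean, the groups ran 129Sv knockout (5326 ± 399), B6 knockout (4226 ± 864), B6 wild type (1865 ± 266) and 129Sv wild type (1667 ± 206). Neither the 2 knockout groups (adjusted p = 0.0790) nor the 2 wild type groups (adjusted p = 0.50) passed the test between strains.

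Tcl1 had the highest fold of the 5 in each strain. It stood at 466, 451 and 476 on the 129Sv knockout arrays, against 125, 145 and 120.1 on the 129Sv wild type arrays. On the B6 knockout arrays it stood at 303, 384 and 256, against 94.7, 98.1 and 85.7 on the B6 wild type arrays. The 4 groups did not overlap at all, in the order 129Sv knockout, B6 knockout, 129Sv wild type and B6 wild type. The 129Sv knockout arrays were close together, with a coefficient of variation of 2.66%, against 20.6% for the B6 knockout arrays. The fold was 3.58 in 129Sv (log2 difference 1.84 ± 0.17, limma adjusted p = 6.43e-06) and 3.35 in B6 (1.74 ± 0.17, adjusted p = 2.05e-05). The effects differed by 0.10 ± 0.23 between strains, with a 95% confidence interval from −0.40 to 0.60.

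Dppa3 was higher in knockout testes of 129Sv and did not pass in B6. Its intensity was 3853, 3957 and 4617 on the 129Sv knockout arrays, against 2154, 2542.5 and 1878 on the 129Sv wild type arrays. In B6 the knockout arrays had 3184, 3125 and 2409, against 1998, 2849.6 and 2263 on the wild type arrays. The 129Sv groups did not overlap, and in B6 knockout array 3 lay below wild type array 2. The fold was 1.90 in 129Sv (log2 difference 0.93 ± 0.15, limma adjusted p = 0.00103), and the log2 difference in B6 was 0.30 ± 0.15 (adjusted p = 0.228). Within the 2 title numbers that B6 knockout and wild type arrays share, the B6 log2 differences were 0.67 for arrays 1 and 0.13 for arrays 2. The titles also hold a number before the strain code, which in 129Sv is 7 on all knockout arrays and on wild type array 2, and 11 on the other wild type arrays, and so is largely confounded with genotype. With it as a covariate the 129Sv value rests on wild type array 2 alone, and Dppa3 then had 0.70 and no longer passed (adjusted p = 0.0904), while the genes called in 129Sv fell to 347, against 1058 without it. By mean the order was 129Sv knockout (4142 ± 414), B6 knockout (2906 ± 432), B6 wild type (2370.2 ± 436) and 129Sv wild type (2191 ± 334), and the wild type groups did not differ beyond their spread (adjusted p = 0.665).

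Dppa4 was the 1 gene of the 5 that was lower in knockout testes, and it was so in B6. It had 1668, 1632 and 858 on the B6 knockout arrays, against 2254, 2399 and 2685 on the B6 wild type arrays. In 129Sv it had 3225, 2735 and 3352 on the knockout arrays, against 2937, 3657 and 3403 on the wild type arrays. The B6 groups did not overlap, and the 129Sv groups did. In B6 it was 1.84-fold lower (log2 difference −0.88 ± 0.20, limma adjusted p = 0.0128), and in 129Sv the log2 difference was −0.10 ± 0.20 (adjusted p = 0.837). The B6 value rested in part on B6 knockout array 3, without which it was −0.56 and still passed (adjusted p = 0.0101). Within the 2 shared title numbers it was −0.43 for arrays 1 and −0.56 for arrays 2. It did not pass without B6 wild type array 3 (−0.81, adjusted p = 0.0702), with only the B6 arrays in the fit (adjusted p = 0.0707), with log2 values floored at 4 (adjusted p = 0.117) or with the Actb ratio as a covariate (−0.66, adjusted p = 0.0759). By mean the order was 129Sv wild type (3332 ± 365), 129Sv knockout (3104 ± 325), B6 wild type (2446 ± 219) and B6 knockout (1386 ± 457).

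Germ cell markers moved with genotype in B6, beside this fall of Dppa4. Of 12 tested markers, 8 fell and 2 rose in B6 knockout testes (median log2 difference −1.24), against 1 that fell and 2 that rose in 129Sv (median −0.16), where the medians of all tested genes were 0.032 in B6 and −0.0062 in 129Sv. The mean log2 level of the 12 was 8.09 to 8.52 on B6 knockout arrays against 9.22 to 9.49 on B6 wild type arrays, and 9.75 to 10.13 on 129Sv knockout arrays against 9.82 to 9.92 on 129Sv wild type arrays. Ddx4, an RNA helicase of germ cells, had 2771, 2298 and 1700.1 on the B6 knockout arrays against 2859 to 3223 on B6 wild type arrays, and did not pass (adjusted p = 0.0855). With the Ddx4 level as a covariate, a setting chosen after the data were seen, the B6 difference of Dppa4 was −0.50 (adjusted p = 0.379), and with that of Dazl, an RNA-binding protein of germ cells, it was −0.78 (adjusted p = 0.00213). Of all tested genes, 303 passed in B6 with Ddx4 and 1383 with Dazl, against 1005 without. With either covariate Dppa5a and Tcl1 passed in both strains, with log2 differences of 1.26 and 1.82 in B6 with Ddx4. Ddx4 and Dazl were the 2 of the 12 markers that did not pass in B6 (log2 differences −0.46 and −0.13). Ddx4 was still lower on every B6 knockout array than on the B6 wild type arrays (limma unadjusted p = 0.00964). As covariates they may stand only in part for the markers that fell, and how far they do was not tested. Sertoli cell markers fell for 2 of 12 in each strain, and none of the fetal Leydig, endothelial, macrophage, red blood or interstitial markers passed in limma, with up to 3 of a list under an unadjusted p of 0.05 (endothelial markers in B6). The part of these markers in the results for the 5 genes was not tested beyond those covariates.

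Dppa2, the partner of Dppa4, did not pass in either strain. Its probe set with the higher mean (1453223_s_at), which stood for the gene in the fit, had 613, 546 and 379 on the 129Sv knockout arrays, against 387, 401 and 313 on the 129Sv wild type arrays. On the B6 knockout arrays it had 392, 379 and 264, against 256, 401 and 289 on the B6 wild type arrays. The groups overlapped in both strains. The log2 difference was 0.46 ± 0.22 in 129Sv (95% confidence interval from −0.0058 to 0.93, limma adjusted p = 0.244) and 0.13 ± 0.22 in B6 (from −0.33 to 0.60, adjusted p = 0.731). By mean the order was 129Sv knockout (513 ± 121), 129Sv wild type (367 ± 47.2), B6 knockout (345 ± 70.4) and B6 wild type (315 ± 75.8), and no step between groups of the same strain or genotype passed. The suffix of this probe set marks probes that may match several transcripts.

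The other Dppa2 probe set (1429654_at) came close in B6 to 16, the intensity that a gene or probe set had to reach on at least 3 arrays to be tested. It had 74.2, 67.1 and 48.1 on the 129Sv knockout arrays, against 36.9, 30.1 and 35.3 on the 129Sv wild type arrays. In B6 it had 29.0, 26.9 and 5.41 on the knockout arrays, against 20.1, 23.3 and 20.9 on the wild type arrays. The 129Sv groups did not overlap, and in B6 knockout arrays 1 and 2 lay above and array 3 below all wild type arrays. Fitted probe set by probe set, the log2 difference was 0.87 ± 0.47 in 129Sv (limma adjusted p = 0.360 over 21900 probe sets) and −0.40 ± 0.47 in B6 (adjusted p = 0.628). Without B6 knockout array 3, whose value sets much of the common spread, these became 0.87 (adjusted p = 0.00925) and 0.39 (adjusted p = 0.363). Of the 6 probe sets, 4 passed in at least 1 strain in this fit, those of Dppa5a, Tcl1, Dppa3 and Dppa4, where 5.74% of all tested probe sets passed in 129Sv and 5.02% in B6.

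B6 knockout array 3 was the lowest of its group in 6 of 6 probe sets. The same array had the highest Actb ratio and the lowest Ddx4 and Dazl of the 12. Without it, the B6 differences were 1.35 for Dppa5a, 1.88 for Tcl1 and 0.43 for Dppa3 (limma adjusted p = 0.117). The part of RNA quality in its values was not tested beyond leaving the array out and the Actb covariate.

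**Figure D2:**
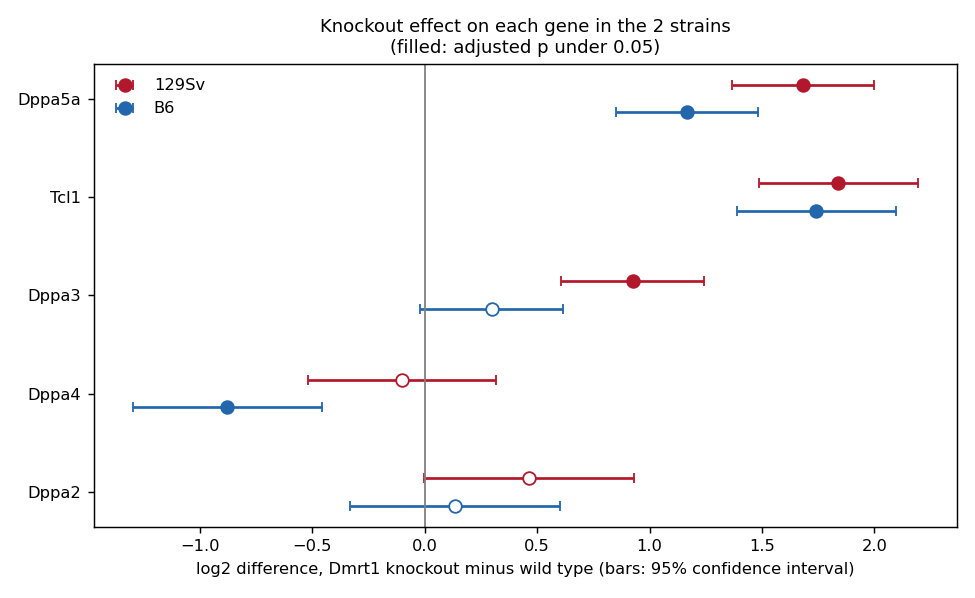
Log2 difference between Dmrt1 knockout and wild type for each gene in 129Sv and in B6, with 95% confidence intervals from the limma fit. Filled points have an adjusted p under 0.05. Dppa5a and Tcl1 are filled and above 0 in both strains, Dppa3 is filled in 129Sv at 0.93, and Dppa4 is filled in B6 at −0.88.

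The strains were then compared directly. The last title number separates them fully. The number before the strain code does so too, with 10 on the B6 arrays that have one and 7 or 11 on 129Sv arrays. What these numbers mark cannot be told apart from strain. The knockout effect of none of the 5 genes differed between 129Sv and B6 past the threshold in limma, where 1.31% of all tested genes did. An unadjusted p under 0.05 was found for 2077 of the 12726 tested genes and for 3 of the 5. These were Dppa3, whose effect was 0.63 ± 0.21 higher in 129Sv (95% confidence interval from 0.18 to 1.08, adjusted p = 0.167), Dppa4 (0.78 ± 0.28, from 0.18 to 1.37, adjusted p = 0.189) and Dppa5a (0.51 ± 0.21, from 0.07 to 0.96, adjusted p = 0.245). For Dppa2 the difference was 0.33 ± 0.31 (from −0.33 to 0.99, adjusted p = 0.618). Without B6 knockout array 3 these differences were 0.50 for Dppa3 (adjusted p = 0.265), 0.46 for Dppa4, 0.34 for Dppa5a and 0.15 for Dppa2. Without B6 wild type array 2 that of Dppa2 was 0.14. So the pass of Dppa3 in 129Sv alone and of Dppa4 in B6 alone is not shown to be a difference between strains. With array weights Dppa3 passed (0.65, adjusted p = 0.0326), a setting in which 779 of all tested genes passed, against 167 in the fit reported.

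Within knockout testes, 3 of 5 genes were higher in 129Sv than in B6, where 34.1% of all tested genes passed and 20.3% were higher. The median log2 difference of the 5 was 0.57. All 12 germ cell markers were also higher (median 1.44), as were 14 of the 19 pluripotency factors listed below (median 1.13). So were all 8 methylation-silenced germline genes listed below (median 1.70), of which Mael, Dazl and Taf7l are also among the 12 germ cell markers. Of the 12 Sertoli cell markers 6 were lower, as were 3 of 4 fetal Leydig, 4 of 8 endothelial and 4 of 8 macrophage markers. Of the red blood cell markers 1 of 4 was lower, and none of the 5 interstitial markers passed. Dppa4 was 2.33-fold higher (log2 difference 1.22 ± 0.20, limma adjusted p = 0.000339), Tcl1 1.5-fold (0.58 ± 0.17, adjusted p = 0.0148) and Dppa3 1.43-fold (0.52 ± 0.15, adjusted p = 0.0153). The arrays did not overlap for 4 of 5, all higher in 129Sv, where 25.0% of tested genes did so. The Dppa2 probe set 1429654_at was also higher, with a log2 difference of 1.94 ± 0.47 (adjusted p = 0.00723), where 30.8% of tested probe sets passed. Without B6 knockout array 3, whose 5.41 lies below the filter of 16, it was 1.15 and still passed (adjusted p = 0.00123), and it did not pass with Ddx4 (0.27, adjusted p = 0.851) or Dazl (0.21, adjusted p = 0.703) as a covariate. None of the 3 genes passed with the Ddx4 or the Dazl level as a covariate, and Dppa4 then had 0.49 (adjusted p = 0.358) and 0.59 (adjusted p = 0.0570). Of all tested genes, 963 passed with Ddx4 and 2319 with Dazl, against 4345 without, so this loss was general. Ddx4 itself did not overlap between the knockout groups (3313 to 4619 in 129Sv, 1700 to 2771 in B6). As a covariate it is thus hard to separate from this contrast. Dppa3 did not pass without 129Sv knockout array 3 (0.44, adjusted p = 0.0703) or without B6 knockout array 3 (0.39, adjusted p = 0.0615).

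Within wild type testes, none of the 5 genes passed in limma between 129Sv and B6, where 16.1% of all tested genes did. For 2 of the 5 the unadjusted p was under 0.05, as it was for 3871 of the 12726 tested genes. Tcl1 had a log2 difference of 0.48 ± 0.17 (adjusted p = 0.0602) and Dppa4 one of 0.44 ± 0.20 (adjusted p = 0.141). The arrays of these 2 genes did not overlap, with 129Sv higher, as for 26.6% of tested genes. Without B6 knockout array 3 in the common fit, both passed, Dppa4 with an adjusted p of 0.00907 and Tcl1 with 0.0256. Their log2 differences were the same as before, since only the common spread changed. Of all tested genes, 2849 then passed, against 2054 in the fit reported. In the fit reported, 3 of 12 germ cell markers were higher in 129Sv wild type and none lower (median log2 difference 0.51). The 8 methylation-silenced germline genes had a median of 0.52, with 3 higher and none lower. Of the 19 pluripotency factors 2 were higher and 1 lower (median −0.16), and the median of all tested genes was 0.063.

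The genes next to the 5 were examined, taking the 2 nearest on each side with a probe set. On chromosome 6, Dppa3 lies between Gdf3, a ligand of the TGF-beta family, and Nanog, a homeodomain factor of pluripotent cells. Gdf3, 16.3 kb away, was 12.9-fold higher in 129Sv knockout testes and 2.92-fold higher in B6 (limma adjusted p = 2.61e-05 and 0.0229). Nanog, 77.2 kb away, was 10.3-fold higher in 129Sv and 3.24-fold higher in B6 (adjusted p = 4.72e-07 and 0.000248). The log2 difference of Dppa3 in 129Sv, 0.93, was thus below those of both flanking genes, 3.69 and 3.37. Apobec1, a cytidine deaminase beyond Gdf3, rose in 129Sv by 0.75 (adjusted p = 0.0490) and had 0.41 in B6 (adjusted p = 0.264), and Slc2a3, a glucose transporter beyond Nanog, passed in neither strain.

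On chromosome 9, Dppa5a lies 8.7 kb from Ooep, a related KH domain gene of the oocyte. Ooep was 6.24-fold higher in 129Sv knockout testes and 2.69-fold higher in B6 (limma adjusted p = 5.35e-07 and 0.000239). The next gene, the helicase gene Ddx43, moved the other way, 2.64-fold lower in 129Sv and 3.63-fold lower in B6 (adjusted p = 0.0232 and 0.00474). Gsta2, a glutathione transferase on the other side, passed in neither strain.

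On chromosome 16, Morc1, a germ cell ATPase gene 111.7 kb from Dppa2, was 1.64-fold lower in 129Sv knockout testes and 5.47-fold lower in B6 (limma adjusted p = 0.0339 and 4.07e-06). Morc1 had 173 to 263 on B6 knockout arrays against 1018 to 1387 on B6 wild type arrays. The B6 log2 differences along this stretch were −0.88 for Dppa4, 0.13 for Dppa2 and −2.45 for Morc1. On chromosome 12, the paralogues Tcl1b3 and Tcl1b4 stayed below the filter, at log2 values of at most 2.94 and 2.05, although Tcl1b4 lies 9.8 kb from Tcl1. Tunar, a noncoding RNA gene on the other side, was at least 3.47-fold lower in 129Sv knockout testes and at least 1.58-fold lower in B6 (adjusted p = 0.00118 and 0.00142), computed against a log2 value of 4 where a group lay below it.

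**Figure D3:**
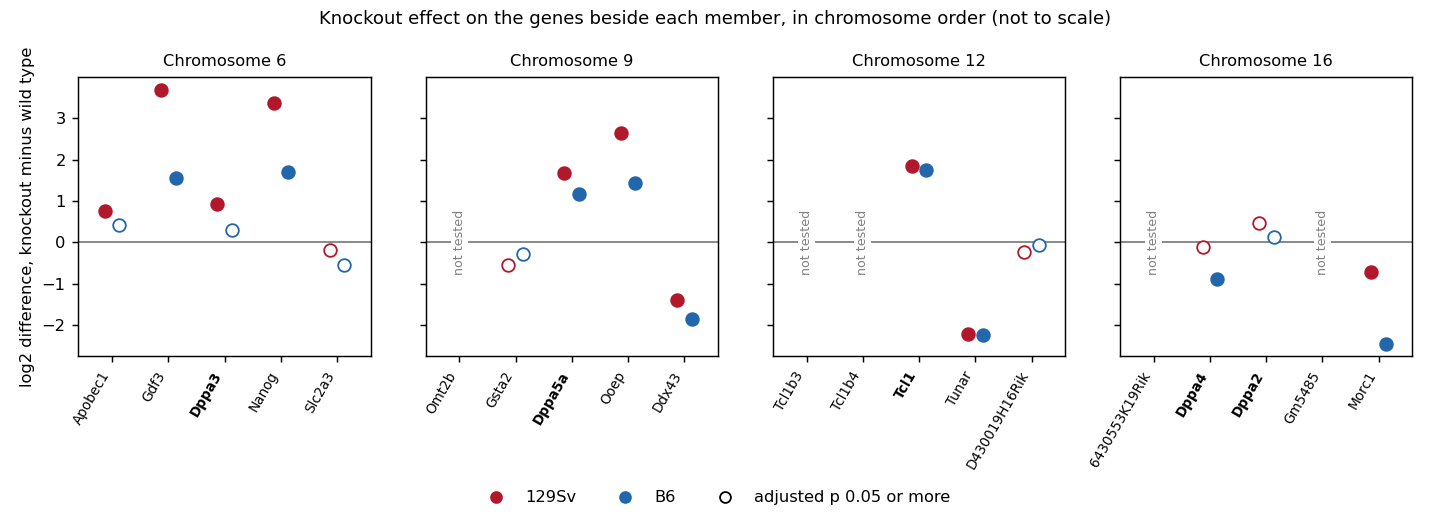
Log2 difference between knockout and wild type for Dppa3, Dppa5a, Tcl1 and Dppa2 and for the 2 nearest genes with a probe set on each side, in chromosomal order, in 129Sv and B6. Filled points have an adjusted p under 0.05, and genes below the filter are marked as not tested. Gdf3 and Nanog stand above Dppa3, Ooep above Dppa5a, and Tunar below Tcl1. The values of Tunar are the fitted ones.

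Genes related in sequence or function to the 5 were read as counts. Of 11 relatives of Dppa5a and Tcl1, 8 had a probe set and 4 were tested. Ooep and Khdc3, which encode KH domain proteins of the same maternal complex in oocytes, rose in both strains, Khdc3 by at least 3.68-fold in 129Sv and at least 1.26-fold in B6 (limma adjusted p = 5.94e-06 and 0.00240). Khdc1a, another KH domain gene, was 2.05-fold lower in B6 (adjusted p = 0.0494) and had a log2 difference of 0.55 in 129Sv (adjusted p = 0.329). Mtcp1, the Tcl1 relative that was tested, had 0.19 and 0.25 and passed in neither. Among the 19 pluripotency factors, 15 rose and 1 fell in 129Sv (median log2 difference 1.97), and 10 rose and 2 fell in B6 (median 0.99). The 5 genes themselves had medians of 0.93 and 0.30.

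Tcl1 activates AKT, and none of 12 tested AKT pathway genes passed in limma in either strain, with 0 under an unadjusted p of 0.05 in 129Sv and 1 in B6. That gene was the kinase gene Mtor, with a log2 difference of −0.67 in B6 (adjusted p = 0.0826). Akt1 had −0.12 in 129Sv and 0.12 in B6. Of the 9 tested DNA methylation genes grouped with Dppa3, Dnmt3b, a de novo methyltransferase, rose 3.77-fold and Tet1, which oxidises methylcytosine, rose 2.69-fold in 129Sv knockout testes (adjusted p = 5.26e-07 and 0.00606). In B6, Dnmt3l, the germ cell cofactor of de novo methylation, fell 23.5-fold and Dnmt3a fell 1.55-fold (adjusted p = 0.000107 and 0.0411). Uhrf1, the partner that DPPA3 restrains, had log2 differences of 0.042 in 129Sv and −0.022 in B6, and the maintenance methyltransferase Dnmt1 had 0.050 and 0.053.

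Of 13 genes of the 2-cell embryo linked to Dppa2 and Dppa4 in stem cells, 5 had a probe set and 2 were tested. Usp17la, a deubiquitinase gene, fell by at least 3.51-fold in 129Sv and at least 1.78-fold in B6 (limma adjusted p = 0.00421 and 0.00127), and Eif1a, an initiation factor gene, passed in neither. Syce1, known to depend on Dppa2 and Dppa4 in mouse lung, had log2 differences of 0.50 and −0.14 (adjusted p = 0.211 and 0.733). Of 8 germline genes known to be silenced by promoter methylation in somatic cells, none passed in 129Sv in limma (1 under an unadjusted p of 0.05), and 6 fell in B6 with a median over the 8 of −1.04. The testis antigen gene Tex101 fell 5.43-fold and the synaptonemal complex gene Sycp3 fell 2.39-fold in B6 (adjusted p = 0.000155 and 0.00168).

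The genes most like each changed member were found by the root mean square difference of log2 values, each gene centred on its mean over the 12 arrays. These distances describe the same arrays that gave the changes above, and are given with no test. Nearest to Dppa5a were Mocos (0.18), the pluripotency factor Klf5 (0.20), Pipox (0.22), Cemip (0.23) and Ccl25 (0.25), against 0.75 for the spread of Dppa5a around its own mean. Nearest to Tcl1 were the TGF-beta family ligand gene Nodal (0.29), Dmrt3, which like Dmrt1 encodes a DM domain protein (0.30), Mocos (0.31), Siglecf (0.32) and Dppa5a itself (0.32), against a spread of 0.95. Dppa5a was the 1 member found among the nearest genes of another, and Mocos stood near both. Nearest to Dppa3 were Pdxp (0.15), Zfp296 (0.15), Ipmk (0.17), Ifitm1 (0.18) and Pdzd4 (0.18), against a spread of 0.40. Nearest to Dppa4 were Naa40 (0.14), Stk10 (0.14), Rad17 (0.16), Nsrp1 (0.17) and Cfap20dc (0.17), against a spread of 0.58.

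**Figure D4:**
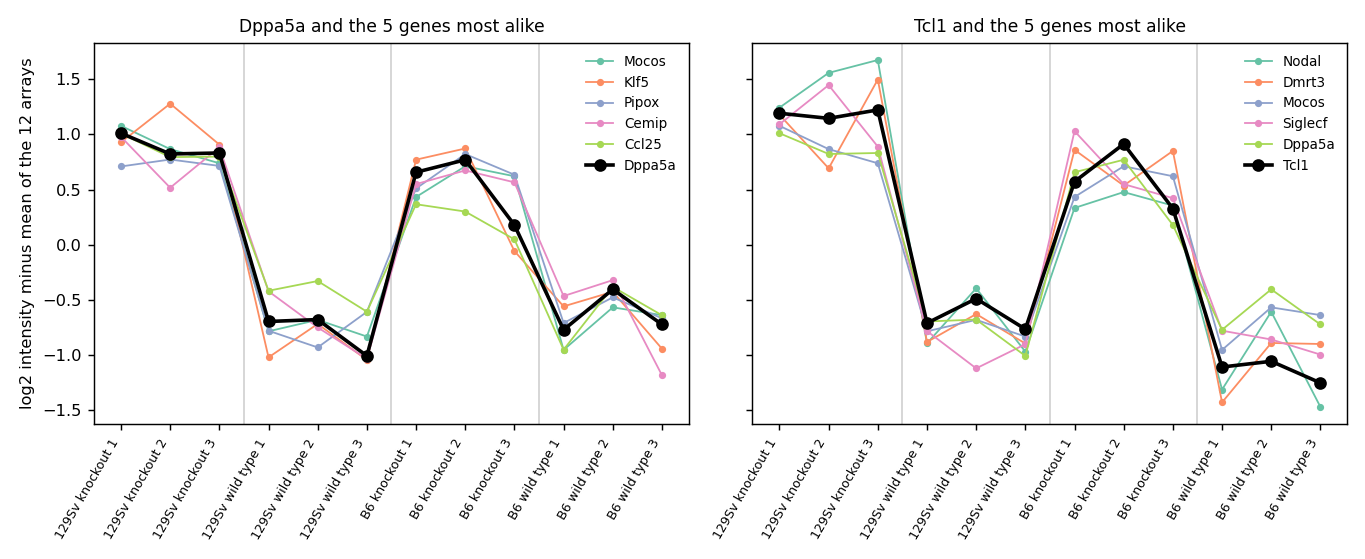
Log2 values centred on the mean of the 12 arrays for Dppa5a (left) and Tcl1 (right) in black and the 5 genes nearest to each in colour, array by array in the 4 groups. Grey lines separate the groups. Each curve lies above 0 on the 129Sv knockout arrays and below 0 on the wild type arrays, and Klf5 falls below 0 on B6 knockout array 3.

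The calls of Dppa5a and Tcl1 between knockout and wild type held in each of 29 alternative settings in both strains. Over these settings the log2 difference of Dppa5a lay between 1.54 and 1.77 in 129Sv and between 1.05 and 1.37 in B6, and that of Tcl1 between 1.67 and 1.92 in 129Sv and between 1.59 and 1.96 in B6. Dppa3 passed in 28 of 29 settings in 129Sv (0.70 to 1.07) and in 1 of 29 in B6 (0.18 to 0.45), the one with array weights. Dppa4 passed in 24 of 29 settings in B6 (−1.04 to −0.50) and in none in 129Sv (−0.41 to −0.014). Dppa2 passed in none in either strain.

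**Figure D5:**
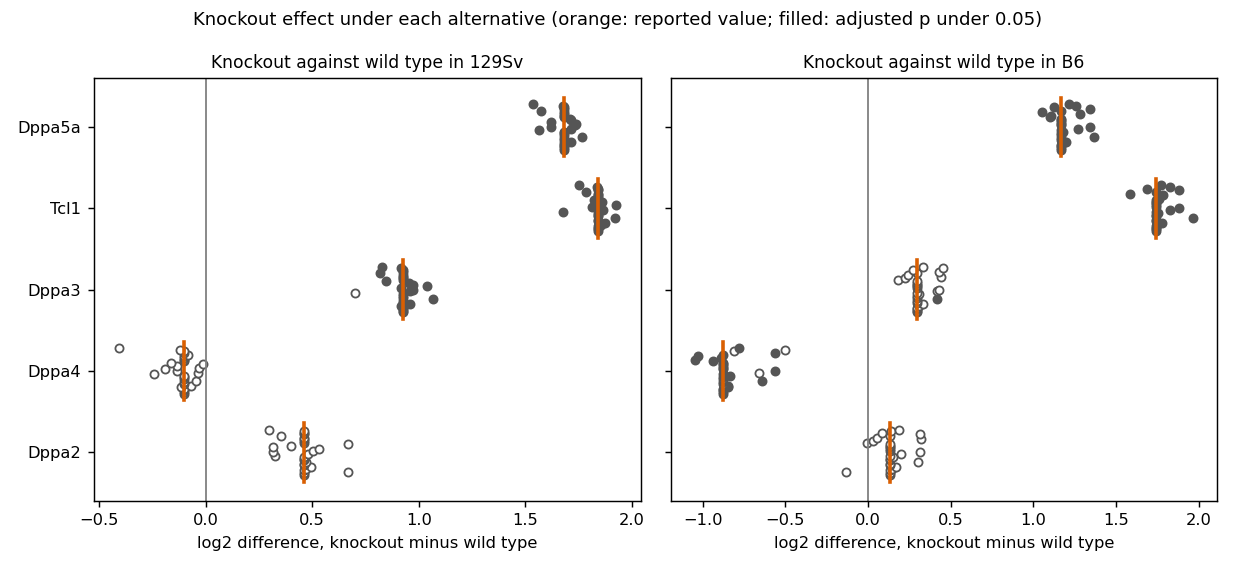
Log2 difference between knockout and wild type for each gene under each of the 29 alternative settings, 129Sv on the left and B6 on the right. Each point is a setting, filled where the adjusted p is under 0.05, and the orange line is the value reported. All points of Dppa5a and Tcl1 are filled in both strains, and the points of Dppa4 in B6 spread from −1.04 to −0.50.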

How the data were processed

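The deposited series table holds intensities of 45101 probe sets on 12 Affymetrix arrays, which the authors summarised with GCRMA, as the submitters' processing notes name it without version or settings. The values were read as linear because the array medians were near 18, and log2 was taken. Groups and replicate numbers came from the sample descriptions. Probe sets were named from the supplied platform annotation: 34958 had 1 gene, 932 several and 9211 none, and 13 named controls were left out. Of the probe sets of a gene, the one with the highest mean was used. A gene was tested if 3 or more arrays reached log2 4, an intensity of 16, which kept 12726 of 18193 genes and, in a second fit, 21900 probe sets. Where 1 of 2 group means lay below log2 4, the fold was taken to 4 and written "at least".

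limma 3.58.1 in R 4.3.3 fitted the 4 group means (lmFit, then eBayes with trend, 8 residual and 6.71 prior degrees of freedom), with Benjamini-Hochberg adjustment over all features tested. The fit was tested on simulated data. The tables were made with Python 3.11.15 and pandas 2.3.3. The members, gene lists and tests were chosen with earlier results of these data known. Genes were named as members, as list genes past the threshold, as the 2 nearest neighbours on each side, and as the 5 genes most alike. Some list genes that did not pass (Ddx4, Dazl, Mtcp1, Akt1, Mtor, Uhrf1, Dnmt1, Eif1a and Syce1) were named after their values were seen. Arrays have no depth in counts, so the precision is set by their number. Replicate numbers were not read as pairs, although B6 arrays 1 and 2 of both genotypes share a title number. Alternatives were other filters, rules for probe sets, normalisations, variance models, blocks and covariates, and each array left out.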

Additional observations from a re-analysis of the deposited data

Results flagged for a closer look

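Dmrt1, the gene removed, was the 1 gene among it and the 5 members whose knockout effect differed between the strains past the threshold. Its log2 difference between knockout and wild type was −2.64 ± 0.17 in 129Sv and −3.72 ± 0.17 in B6 (SE, n = 3 arrays a group), and the difference of these effects was 1.08 ± 0.24 (limma adjusted p = 0.0450, 95% confidence interval from 0.56 to 1.60). Its intensity was 167 ± 18.9 in 129Sv knockout testes against 74.4 ± 11.3 in B6 knockout testes, and 1040.3 ± 132 in 129Sv wild type against 984 ± 164 in B6 wild type (SD). The difference of the Dmrt1 effects lay near the threshold and was not read under the alternatives below. Over those, the genes called for this difference numbered 20 (title number) to 779 (array weights), against 167 reported.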

How the results depend on the processing

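The knockout calls of Dppa5a and Tcl1 held in both strains under all 29 alternatives run. Between knockout testes of 129Sv and B6, the count of 3 genes became 1 without the 2 arrays of the highest Actb ratio and 0 with Ddx4 or with Dazl as a covariate, both chosen after seeing the data. It was 4 with the mean of the probe sets of a gene, which added Dppa2 (1.25, adjusted p = 0.0117, against 0.57 in the fit reported), and 2 with a floor at log2 4, without Dppa3 (adjusted p = 0.0673). With each array left out it ranged from 2 to 4, Dppa2 passing without 129Sv knockout array 3, B6 knockout array 1 or B6 wild type array 2, and Dppa5a without B6 knockout array 2. Between wild type testes, the count of 0 became 1 with the mean of the probe sets of a gene, 1 without the variance trend, 2 with array weights, 1 with only the groups compared, 2 with the Actb ratio as a covariate and 2 without the 2 arrays of the highest ratio. With each array left out in turn it ranged from 0 to 2, with 1 without B6 knockout array 2 and 2 without B6 knockout array 3. For the difference of the knockout effects, the count of 0 became 1 with array weights. The cause of these shifts was not tested. Of all tested genes, the number called between knockout and wild type was 347 (title number) to 2092 (array weights) in 129Sv, against 1058 reported, and 303 (Ddx4) to 2166 (array weights) in B6, against 1005. It was 20 to 779 for the difference of effects, against 167, 1030 to 3461 between wild types, against 2054, and 963 to 5450 between knockouts, against 4345.

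Some values changed sign, the furthest from 0 afterwards being the 0.46 of the Dppa2 probe set 1429654_at in B6 with Ddx4. For Dppa2 between knockout and wild type in B6 (0.13) they were −0.13 with the mean of its probe sets and −0.0037 without B6 wild type array 1, the lowest of −0.0037 to 0.32 with each array left out. For its probe set 1429654_at in B6 (−0.40) they were 0.12 with a floor at log2 4, 0.28 with array weights, 0.22 with the Actb covariate, 0.39 without the 2 arrays of the highest ratio, 0.39 without B6 knockout array 3 (−0.82 to 0.39 with each array left out) and 0.46 with Ddx4. For the same probe set between 129Sv and B6 wild type (0.67) it was −0.10 with Ddx4. For the difference of the Tcl1 effects (0.10) they were −0.046 with array weights, −0.068 with the title number, −0.043 without the 2 arrays, −0.040 without B6 knockout array 3 (−0.040 to 0.25 with each array left out) and −0.021 with Dazl. For Dppa3 between 129Sv and B6 wild type (−0.11) they were 0.12 with the title number and 0.032 without B6 wild type array 2 (−0.22 to 0.032 with each array left out). None of these passed the threshold. Of the other values of single genes and probe sets under an alternative, 786 kept direction and side of the threshold, 28 passed where the reported value did not, and 19 no longer passed.

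The replicate number as a block raised the count between knockout testes of the strains to 5, Dppa2 (adjusted p = 0.0304) and Dppa5a (0.0453) being added, and changed no other call. Deviations of knockout and wild type arrays of the same number correlated between −0.466 and −0.0862 in 129Sv and between −0.0392 and 0.00759 in B6, so the numbers were not read as pairs. With 3 arrays a group, an adjusted p over 0.05 does not show that a gene was unchanged.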
